A study of Mus musculus with 1 sample.

Results

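The genes described here are 32 stress-response genes, 21 immediate early genes and 11 heat shock genes. They were listed by name, with earlier results of these data known, and all 32 were among the 22631 features of the table. They were followed across the cell types of 1 library of dissociated mouse fetal testis. The label gives the genotype as WT and the stage as embryonic day 14.5, whereas the design text names a day before it as well, and the study's methods name fetuses with both *Nr5a1* alleles floxed (L2/L2) and no Cre transgene as controls. Tissue of 12 controls was pooled, which gave 1 sample without a replicate. The library of the mutant was not analysed here. The testes were held for 10 min at 37 °C in 0.05% trypsin with EDTA. The cells were passed through a strainer, of 40 µm as the label gives it, whereas the study's methods name a wider one. At least 90% of the cells were viable, and 10000 were loaded on the droplet system (10x Genomics Chromium, 3′ chemistry).

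Immediate early genes are switched on within minutes of a signal, from transcription factors already present in the cell and without new protein synthesis. Many of them encode transcription factors themselves, and others encode proteins that end the signal. Heat shock genes encode chaperones, which hold or refold unfolded proteins. Some chaperones are made in all cells at all times, and others only after heat shock factor binds heat shock elements in their promoters. Both groups are known to be induced when a tissue is warmed and digested into single cells. Undissociated tissue was not analysed here, so RNA made before and during the digestion cannot be told apart in any value below.

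Each captured RNA molecule carried a unique molecular index (UMI), and the authors deposited counts of these for every gene in every barcode. The filters kept 3821 of 5421 barcodes, with 54723001 UMIs, between 2284 and 53657 UMIs per cell, and a median of 12067 UMIs. Levels are UMIs of a gene per 1000000 UMIs of a group of cells (CPM), with an exact 95% Poisson interval in parentheses where given, and are not scaled to gene length because 3′ counting takes 1 tag per molecule. The intervals cover counting error only. No test was made, since cells of 1 library are not replicates.

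The cells were clustered without the members among the genes used, and the clusters were named from marker lists. Clusters with a name had a mean log2 ratio of their markers against all other cells between 1.17 and 7.55. There were 1347 interstitial-like, 863 Sertoli-like, 531 peritubular myoid-like, 252 germ-like, 148 coelomic epithelium-like and 109 perivascular-like cells. Leydig-like cells formed 2 clusters, cluster 6 with 185 cells and cluster 9 with 132 cells, which are described apart. These 8 groups each had at least 100 cells and are the ones compared. Smaller groups were erythroid-like (36 cells), immune-like (35), rete testis-like (19) and endothelial-like (17). Clusters 11 and 12 (85 and 62 cells) were left without a name. The median depth was 9290 UMIs in interstitial-like cells and 36104.5 UMIs in germ-like cells, the extremes of the 8 groups, and the median mitochondrial share ran from 6.02% in perivascular-like to 13.1% in Leydig-like cluster 9 cells.

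Promoters of the members were read from RefSeq (GRCm38.p6) as windows of 300 bases, 250 before and 50 after the start of the gene, and 27 of the 32 members were matched. They are shown because a short pattern with 2 free positions recurs in most of the heat shock members. The windows of *Hspa8*, *Hsp90aa1*, *Hsp90ab1*, *Egr1* and *Ier2* were not used here. A heat shock element, searched on both strands as GAANNTTC or TTCNNGAA, was present in 7 of the 8 matched heat shock members (87.5%; not in *Dnajb1*) and in 1 of the 19 matched immediate early members (5.26%, *Jun*), against 17.0% of 27025 genes. The stretches below hold it in capitals, 5′ to 3′ on the strand of the gene, and end 1 base before the start except that of *Hspe1*.
*Hspa1a*, chr17:34972157-34972306, minus strand: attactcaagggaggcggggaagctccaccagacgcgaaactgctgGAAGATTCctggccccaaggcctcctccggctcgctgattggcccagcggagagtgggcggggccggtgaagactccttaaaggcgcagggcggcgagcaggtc
*Hspa1b*, chr17:34959239-34959388, minus strand: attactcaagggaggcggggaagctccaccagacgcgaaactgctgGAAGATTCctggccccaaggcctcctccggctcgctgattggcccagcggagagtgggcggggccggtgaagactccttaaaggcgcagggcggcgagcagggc
*Hspb1*, chr5:135887769-135887918, plus strand: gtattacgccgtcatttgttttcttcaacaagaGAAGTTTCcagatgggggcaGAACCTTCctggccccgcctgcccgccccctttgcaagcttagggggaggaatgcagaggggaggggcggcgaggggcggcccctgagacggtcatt
*Hspe1*, chr1:55088053-55088082, plus strand: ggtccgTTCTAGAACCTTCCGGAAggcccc
*Jun*, chr4:95052223-95052372, minus strand: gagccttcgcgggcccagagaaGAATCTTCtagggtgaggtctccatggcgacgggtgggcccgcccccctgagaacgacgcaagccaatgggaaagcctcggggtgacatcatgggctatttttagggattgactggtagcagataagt

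The stretches of *Hspa1a* and *Hspa1b* were equal at 149 of 150 bases (99.3%), with the element at position -104 from the start in both. *Hspb1* held 2 elements, at -117 and -97, and *Jun* held 1, at -128. The stretch of *Hspe1* held 3 overlapping elements between -89 and -79. It lies between the start of *Hspe1* (55088148) and a RefSeq start of *Hspd1* (55087932), which are transcribed away from each other. The same 3 elements therefore counted for both genes. *Hspd1* has another RefSeq start, whose window (chr1:55088194-55088493) held no element. From that other start the stretch lies inside *Hspd1*, and the GENCODE annotation places an exon of *Hspd1* there. A TATA box (TATAAA) was present in 6 of 19 immediate early windows (31.6%: *Fos*, *Junb*, *Btg1*, *Nfkbia*, *Gadd45b* and *Gadd45g*) and in none of the 8 heat shock windows, against 15.7% of all genes. The cyclic AMP response element TGACGTCA was in 2 of 19 (10.5%, *Btg2* and *Dusp1*) against 2.03% of all genes, the serum response element was in *Zfp36* alone, against 1.81%, and the AP-1 letters TGANTCA were in none of the 27, against 8.97%. The median span was 3951 bases for the immediate early and 5497 bases for the heat shock members, against 17570 bases over 21858 protein-coding genes in the table, and 3 of 21 and 2 of 11 members had a single exon (14.3% and 18.2%, against 5.55%). *Dusp1*, *Atf3*, *Nr4a1* and *Hsph1* had spans longer than that median, at 20527 to 56539 bases. These are spans of the whole GENCODE gene over all its transcripts. The RefSeq windows of *Dusp1*, *Atf3* and *Nr4a1* lie inside them, so transcripts from those starts are shorter than the span. The median number of exons was 3 for the immediate early and 9 for the heat shock members, against 7 over all genes.

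The 2 gene groups were high in different cells. The 21 immediate early members together made up 0.120% of the UMIs of all kept cells, at 1202 (1193 to 1211) CPM. Their summed level was highest in Sertoli-like cells, the nurse cells of the testis cords, at 1956 (1932 to 1980) CPM, and lowest in germ-like cells, at 510 (496 to 525) CPM. Between them stood perivascular-like cells at 1297 CPM, Leydig-like cluster 6 at 1172 CPM, interstitial-like cells at 1127 CPM, coelomic epithelium-like cells at 1111 CPM, Leydig-like cluster 9 at 991 CPM and peritubular myoid-like cells at 904 CPM. The intervals of Leydig-like cluster 6, interstitial-like and coelomic epithelium-like cells overlapped in turn, and those of all other neighbours in this order did not. *Jund* alone made up 1005 of the 1956 CPM in Sertoli-like cells. Without *Jund*, a sum chosen after the data were seen, perivascular-like cells were first at 1008 (953 to 1064) CPM and overlapped Sertoli-like cells at 951 (934 to 968) CPM, and germ-like cells were again lowest at 179 (170 to 188) CPM.

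The 11 heat shock members made up 0.993% of all UMIs, at 9928 (9902 to 9955) CPM, and were ordered otherwise. Germ-like cells had the highest summed level, at 18703 (18613 to 18794) CPM, followed by Leydig-like cluster 9 at 14673 (14543 to 14804) CPM and Leydig-like cluster 6 at 11116 (10987 to 11246) CPM. Coelomic epithelium-like cells at 8333 CPM and Sertoli-like cells at 8188 CPM had overlapping intervals, as did perivascular-like cells at 7290 CPM and interstitial-like cells at 7252 CPM, and peritubular myoid-like cells were lowest at 6910 CPM. The order also rests on the 3 genes with the highest CPM. Without *Hspa8*, *Hsp90aa1* and *Hsp90ab1*, again a sum chosen after the data were seen, Leydig-like cluster 9 was first at 9743 (9637 to 9850) CPM, followed by Leydig-like cluster 6 at 5024 CPM, germ-like cells at 4244 (4201 to 4287) CPM and Sertoli-like cells at 2424 CPM. Over all 11 members, germ-like cells had 2.28 times (2.27 to 2.30) the heat shock level of Sertoli-like cells, and over all 21 members 0.261 times (0.253 to 0.269) their immediate early level. Germ-like cells were also the deepest cells, and their lowest place in the immediate early sum holds for CPM and not for UMIs per cell. Per cell they held 17.9 immediate early UMIs. Sertoli-like (29.4), Leydig-like cluster 9 (24.955) and coelomic epithelium-like cells (20.7) held more. Leydig-like cluster 6 (16.1), perivascular-like (15.1), peritubular myoid-like (11.9) and interstitial-like cells (11.2) held fewer.

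**Figure D1:**
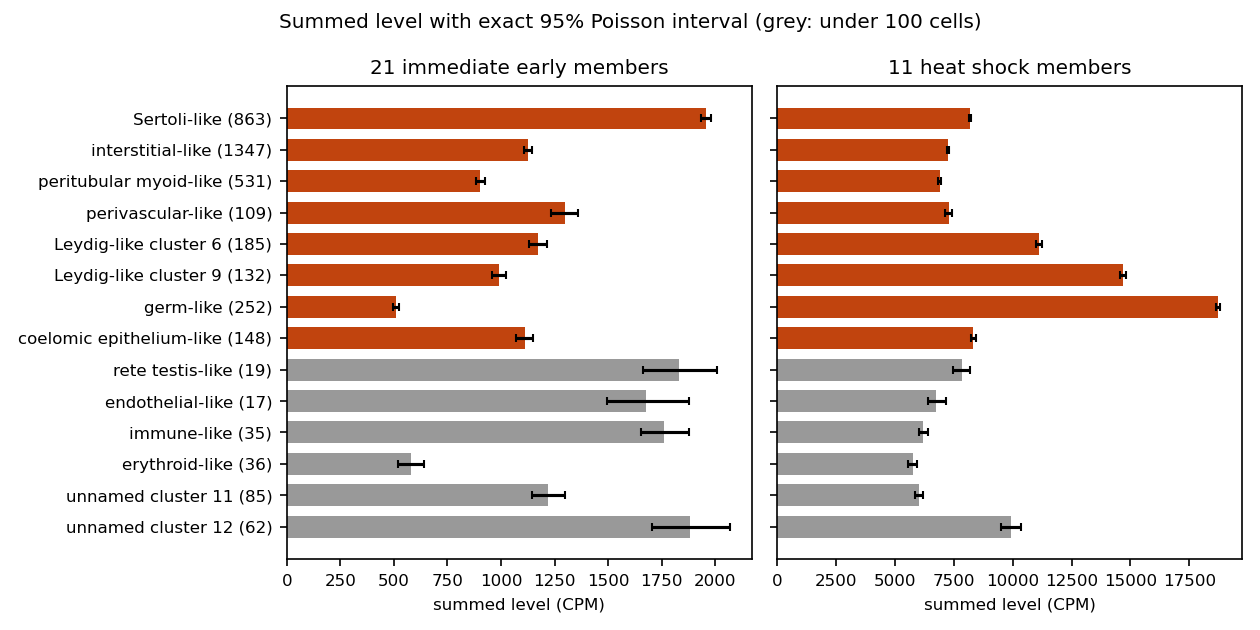
Summed level (CPM, axes from 0) of the 21 immediate early members (left) and the 11 heat shock members (right) in each group of cells, with the number of cells in parentheses and the exact 95% Poisson interval as the error bar, which covers counting error only. Sertoli-like cells reach 1956 CPM on the left and germ-like cells 18703 CPM on the right, and grey bars are groups of under 100 cells.

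No class can be assumed to lack these genes, and free RNA was not measured, so erythroid-like cells are given only as a reference level beside each share of cells with a UMI. Their median depth was 15278.5 UMIs, and their summed levels were 579 (521 to 642) CPM for the immediate early and 5764 CPM for the heat shock members. The germ-like immediate early level of 510 CPM was below that value. In the other small groups the immediate early level was 1830 CPM in rete testis-like, 1762 CPM in immune-like and 1678 CPM in endothelial-like cells, and 1219 and 1881 CPM in clusters 11 and 12.

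Among the AP-1 genes, whose proteins pair into 1 transcription factor, *Jund* (chr8:70698949-70700616, a single exon) had the highest CPM of all immediate early members. *Jund* stood at 1005 (988 to 1022) CPM in Sertoli-like cells. The next group, coelomic epithelium-like cells, had 450 (425 to 476) CPM, followed by 419 CPM in peritubular myoid-like, 400 CPM in interstitial-like, 332 CPM in germ-like, 301 CPM in Leydig-like cluster 6, 290 CPM in perivascular-like and 263 (246 to 281) CPM in Leydig-like cluster 9 cells. Among the 8 groups compared, Sertoli-like cells stood apart from all others, while several of the others overlapped, and erythroid-like cells had 211 CPM. *Jund* was also a large part of the immediate early sum in other groups. Over all kept cells the sum was 1202 CPM, and 681 CPM without *Jund*, and in germ-like cells it was 510 and 179 CPM. The part was smaller in immune-like cells, at 1762 and 1581 CPM, and in endothelial-like cells, at 1678 and 1408 CPM. In unnamed cluster 12, whose nearest marker list was that of Sertoli cells, the sum was 1881 CPM, and 815 CPM without *Jund*. In rete testis-like cells it was 1830 CPM, and 1104 CPM without *Jund*. Both Sertoli-like clusters were alike in their *Jund* level, with 1004 CPM in cluster 1 and 1009 CPM in cluster 7.

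*Jun* (chr4:95049034-95052222, a single exon), the founding AP-1 gene, was highest in coelomic epithelium-like cells at 224 (207 to 242) CPM and in Sertoli-like cells at 216 (208 to 224) CPM, whose intervals overlapped. It stood at 124 CPM in perivascular-like, 114 CPM in interstitial-like, 98.7 CPM in Leydig-like cluster 9, 94.9 CPM in peritubular myoid-like and 60.1 CPM in Leydig-like cluster 6 cells. Germ-like cells had 10.2 (8.2 to 12.5) CPM, below the 35.4 CPM of erythroid-like cells. At an equal depth of 5000 UMIs per cell, 54.8% of Sertoli-like and 6.07% of germ-like cells had a *Jun* UMI, against 16.7% of erythroid-like cells.

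*Fos* (chr12:85473890-85477273), the usual partner of JUN, was scarce, with 11.8 CPM over all kept cells. It was highest in Leydig-like cluster 6 at 27.5 (21.4 to 34.7) CPM and in interstitial-like cells at 17.0 (14.8 to 19.3) CPM. Leydig-like cluster 9 had 10.2 CPM, Sertoli-like cells 9.49 CPM, perivascular-like cells 8.68 CPM, coelomic epithelium-like cells 6.15 CPM and peritubular myoid-like cells 5.70 CPM. Erythroid-like cells had 9.65 (3.54 to 21) CPM, and of the 8 groups only Leydig-like cluster 6 had an interval above it. Germ-like cells held 4 *Fos* UMIs in 252 cells. At 5000 UMIs per cell, 8.33% of erythroid-like cells had a *Fos* UMI, as against 6.64% of interstitial-like, 3.89% of Sertoli-like and 7.61% of Leydig-like cluster 6 cells. In the 35 immune-like cells *Fos* reached 185 (150.5 to 225) CPM, and 43.8% of the 32 that had 5000 UMIs held one.

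The other AP-1 members were also low. *Fosb* had 6.82 CPM over all kept cells, with 9.41 CPM in Sertoli-like, 9.26 CPM in interstitial-like and 0.113 CPM in germ-like cells (1 UMI). *Junb* had 26.4 CPM, with 59.97 CPM in perivascular-like and 55.8 CPM in Leydig-like cluster 6 cells and 1.02 CPM in germ-like cells, beside 33.8 CPM in erythroid-like cells. *Atf3*, which encodes a stress-induced repressor of the same family, had 2.01 CPM and was highest in Sertoli-like cells at 6.17 (4.89 to 7.68) CPM. It had 0 UMIs in perivascular-like cells and in both Leydig-like clusters, and 2 UMIs in the 1347 interstitial-like cells.

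*Egr1*, a zinc finger transcription factor induced through the serum response factor, was highest in perivascular-like cells at 133 (113 to 154) CPM. Sertoli-like cells had 74.4 CPM, interstitial-like cells 68.0 CPM and Leydig-like cluster 6 cells 67.9 CPM, and these 3 intervals overlapped. Coelomic epithelium-like cells at 26.8 CPM, Leydig-like cluster 9 at 21.1 CPM and peritubular myoid-like cells at 17.4 CPM formed a lower set. Germ-like cells had 5.21 (3.82 to 6.96) CPM against 9.65 CPM in erythroid-like cells. *Ier2*, a nuclear protein of growth-factor responses, followed a like order with 178 (156 to 203) CPM in perivascular-like and 175 (168 to 182) CPM in interstitial-like cells. It stood at 110 CPM in Sertoli-like, 104 CPM in Leydig-like cluster 6, 55.3 CPM in peritubular myoid-like, 48.4 CPM in Leydig-like cluster 9, 41.6 CPM in coelomic epithelium-like and 12.0 CPM in germ-like cells, with 53.1 CPM in erythroid-like cells.

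*Fos*, *Fosb*, *Egr1* and *Atf3*, which resting cells hardly transcribe, were also summed. Their summed level was 69.1 CPM over all kept cells, with 143 (123 to 165) CPM in perivascular-like, 103 CPM in Leydig-like cluster 6, 99.5 CPM in Sertoli-like, 94.3 CPM in interstitial-like, 40.5 CPM in coelomic epithelium-like, 34.6 CPM in Leydig-like cluster 9, 29.5 CPM in peritubular myoid-like and 6.23 (4.70 to 8.12) CPM in germ-like cells. Erythroid-like cells had 19.3 CPM, immune-like cells 328 (281 to 379) CPM, and endothelial-like cells 0 UMIs. At 5000 UMIs per cell, 78.7% of the 3653 cells deep enough had no UMI of any of the 4 genes. That share was 69.3% in Sertoli-like, 76.9% in interstitial-like, 89.8% in peritubular myoid-like and 96.0% in germ-like cells. Most cells of every one of these classes therefore showed none of them at this depth, which limits cells with a UMI and not cells that express the genes.

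**Figure D2:**
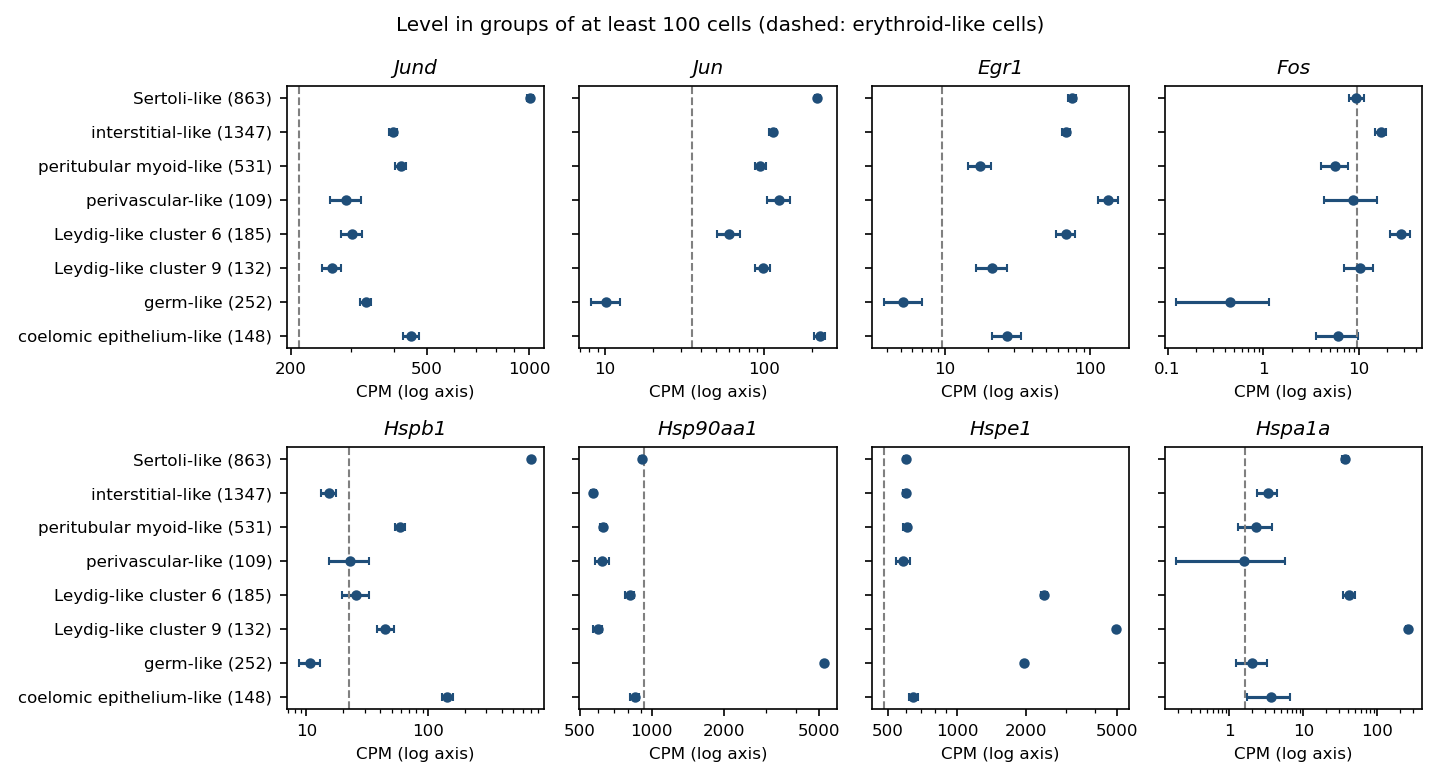
Level (CPM, log axes that differ between panels) of 8 members in the 8 groups of at least 100 cells, with exact 95% Poisson intervals and the erythroid-like level as a dashed line. *Jund* and *Hspb1* are highest in Sertoli-like cells, *Egr1* in perivascular-like cells, *Hsp90aa1* in germ-like cells, and *Hspe1* and *Hspa1a* in Leydig-like cluster 9, while 4 of the 8 *Fos* intervals span the dashed line.

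The Krüppel-like and nuclear receptor factors each had a pattern of their own. *Klf2*, known from endothelium, had 18.5 CPM over all kept cells, 27.9 CPM in germ-like and 6.02 CPM in Leydig-like cluster 9 cells, and 375 (292 to 476) CPM in the 17 endothelial-like cells. *Klf4*, known from Sertoli cells, had 28.3 CPM in Sertoli-like, 26.3 CPM in Leydig-like cluster 6 and 2.76 CPM in interstitial-like cells. *Klf6* had 52.9 CPM in perivascular-like, 48.0 CPM in Sertoli-like and 8.16 CPM in germ-like cells. *Nr4a1*, an orphan nuclear receptor induced by cyclic AMP in steroid-making cells, had 22.0 (17.2 to 27.6) CPM in Leydig-like cluster 9, 13.7 CPM in Sertoli-like and 2.14 CPM in peritubular myoid-like cells.

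Members that end a signal or restrain growth were spread over several groups. *Btg1* (chr10:96617006-96622809), an antiproliferative gene, was highest in perivascular-like cells at 222 (197 to 249) CPM, ahead of 147 CPM in Leydig-like cluster 6 and 145 CPM in Leydig-like cluster 9. Its levels in Sertoli-like, interstitial-like and peritubular myoid-like cells lay between 97.9 and 101 CPM with overlapping intervals, coelomic epithelium-like cells had 89.4 CPM, and germ-like cells had 19.3 CPM, below the 41.8 CPM of erythroid-like cells. *Nfkbia* (chr12:55489410-55492647), which encodes the inhibitor of NF-κB, had 90.3 CPM in Leydig-like cluster 9 and 88.4 CPM in Sertoli-like cells, which overlapped. Perivascular-like cells had 56.0 CPM, Leydig-like cluster 6 41.6 CPM, peritubular myoid-like cells 37.5 CPM, interstitial-like cells 33.4 CPM, coelomic epithelium-like cells 26.4 CPM and germ-like cells 17.3 CPM.

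*Btg2*, a relative of *Btg1*, had 93.4 (88.2 to 98.8) CPM in Sertoli-like, 62.6 CPM in coelomic epithelium-like and 14.2 CPM in perivascular-like cells, beside 77.2 CPM in erythroid-like cells. *Socs3*, which shuts off cytokine receptor signalling, had 40.5 CPM in coelomic epithelium-like, 27.8 CPM in interstitial-like, 2.54 CPM in Sertoli-like and 0.680 CPM in germ-like cells. *Zfp36*, whose protein binds AU-rich messages and speeds their decay, had 20.5 CPM in perivascular-like and 2.54 CPM in Sertoli-like cells, and *Dusp1*, a phosphatase of mitogen-activated kinases, had 12.6 CPM in perivascular-like and 2.71 CPM in Leydig-like cluster 9 cells, beside 14.5 CPM in erythroid-like cells. *Ier3* had 21.2 CPM in germ-like and 2.36 CPM in Leydig-like cluster 6 cells, and 141 (116 to 169) CPM in the unnamed cluster 11.

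The 2 stress-sensor genes of the GADD45 family went to different cells. *Gadd45g* had 222 (204 to 241) CPM in Leydig-like cluster 6, 182 (168 to 197) CPM in Leydig-like cluster 9, 71.2 CPM in Sertoli-like and 1.47 CPM in germ-like cells. *Gadd45b* had 54.4 CPM in perivascular-like, 41.6 CPM in coelomic epithelium-like and 5.23 CPM in interstitial-like cells. Of the 21 immediate early members, 8 had their highest level among the 8 groups in perivascular-like cells, 5 in Sertoli-like cells, and 2 each in Leydig-like cluster 6, Leydig-like cluster 9, coelomic epithelium-like and germ-like cells. Over the 12267 genes with at least 5 CPM in any of these groups, 11.3% were highest in perivascular-like, the group with the fewest UMIs (1267381), and 18.5% in Sertoli-like cells. The share was 6.45% in Leydig-like cluster 6, 13.0% in Leydig-like cluster 9, 11.3% in coelomic epithelium-like and 26.2% in germ-like cells. For 10 of the 21 members, with no such share computed over all genes, the interval of the highest group did not overlap that of the next. These were 3 of the 8 in perivascular-like cells, 2 of the 5 in Sertoli-like cells, both in Leydig-like cluster 6, and 1 each in Leydig-like cluster 9, coelomic epithelium-like and germ-like cells.

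**Figure D3:**
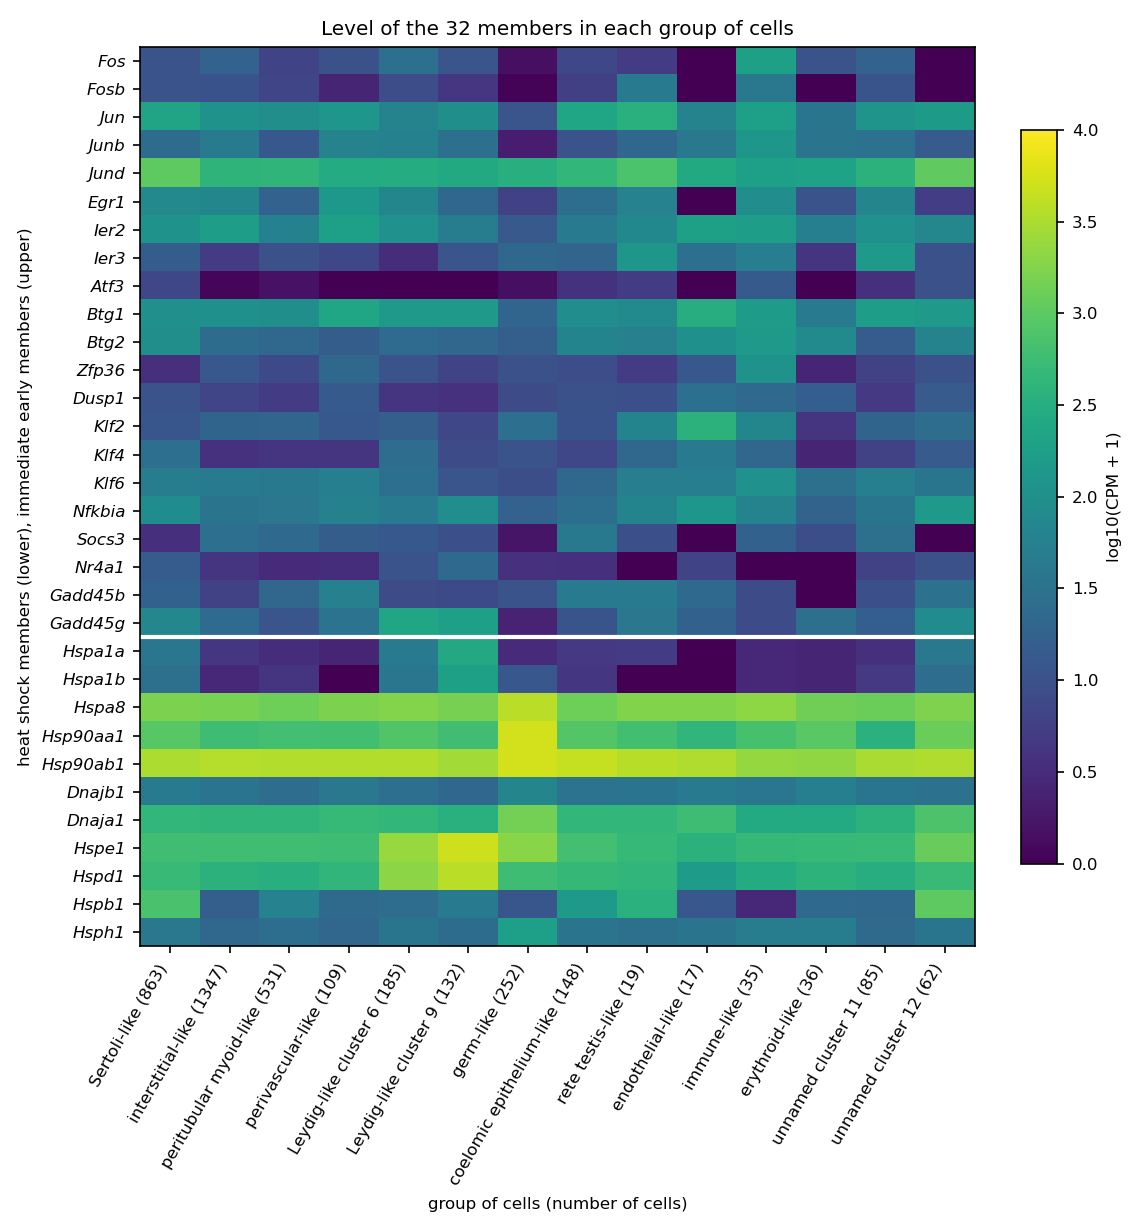
Level of each of the 32 members (rows, immediate early above the white line and heat shock below) in each of the 14 groups of cells (columns, number of cells in parentheses) as log10(CPM + 1). The germ-like column is dark in most upper rows and bright at *Hspa8*, *Hsp90aa1* and *Hsp90ab1*, and both Leydig-like columns are bright at *Hspe1* and *Hspd1*.

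The heat shock members fell into sets by the group with the highest level. Germ-like cells had the highest level of 6 of the 11, Leydig-like cluster 9 of 4 and Sertoli-like cells of 1. Each of these 11 intervals lay apart from that of the next group. The share of all genes with such a gap was not computed, and relative to the level the intervals are narrower for genes with more UMIs. Over all genes, 26.2% were highest in germ-like cells, 13.0% in Leydig-like cluster 9 and 18.5% in Sertoli-like cells. The germ-like set was *Hspa8*, *Hsp90aa1*, *Hsp90ab1*, *Dnajb1*, *Dnaja1* and *Hsph1*. *Hsp90aa1* (chr12:110690605-110702728), the inducible cytosolic HSP90, had 5271 (5223 to 5319) CPM in germ-like cells. It had 911 CPM in Sertoli-like, 851 CPM in coelomic epithelium-like, 812 CPM in Leydig-like cluster 6, 626 CPM in peritubular myoid-like, 620 CPM in perivascular-like, 596 CPM in Leydig-like cluster 9 and 572 (559 to 585) CPM in interstitial-like cells, and 933 CPM in erythroid-like cells. The germ-like level was 7.34 times (7.23 to 7.44) that of all other classed cells together.

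*Hsp90ab1* (chr17:45567775-45573271), the constitutive cytosolic HSP90, varied less, from 5384 (5336 to 5433) CPM in germ-like to 2832 (2775 to 2890) CPM in Leydig-like cluster 9 cells. Coelomic epithelium-like cells had 4383 CPM, interstitial-like cells 3636 CPM, Sertoli-like cells 3214 CPM, and peritubular myoid-like, perivascular-like and Leydig-like cluster 6 cells between 3459 and 3518 CPM with overlapping intervals. *Hspa8* (chr9:40800984-40810087), the constitutive HSP70, had 3804 (3764 to 3845) CPM in germ-like cells, 1820 CPM in Leydig-like cluster 6, 1640 CPM in Sertoli-like, 1596 CPM in perivascular-like, 1584 CPM in interstitial-like, 1502 CPM in Leydig-like cluster 9, 1330 CPM in coelomic epithelium-like and 1295 CPM in peritubular myoid-like cells. Germ-like cells alone of the 8 groups exceeded 1820 CPM.

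The co-chaperones of HSP70 followed. *Dnaja1* (chr4:40722150-40737149), a J-domain partner, had 1436 (1411 to 1461) CPM in germ-like cells and between 347.5 CPM (Leydig-like cluster 9) and 472 CPM (perivascular-like) in the other 7 groups. *Hsph1*, a nucleotide exchange factor for HSP70, had 179 (171 to 188) CPM in germ-like, 39.3 CPM in Sertoli-like and 19.7 CPM in perivascular-like cells. *Dnajb1*, the J-domain protein classically induced with HSP70, had 64.3 (59.1 to 69.8) CPM in germ-like, 45.2 CPM in Sertoli-like and 21.1 CPM in Leydig-like cluster 9 cells, and erythroid-like cells had 51.5 (35.2 to 72.6) CPM, which overlaps the germ-like interval.

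*Hspe1* (chr1:55088132-55091307) and *Hspd1* (chr1:55077835-55088243) encode the 2 parts of the mitochondrial chaperonin, its lid and its barrel. The promoter stretch shown above lies between their starts when the *Hspd1* start at 55087932 is taken. *Hspe1* had 4948 (4873 to 5024) CPM in Leydig-like cluster 9, 2397 (2337 to 2458) CPM in Leydig-like cluster 6 and 1962 (1933 to 1991) CPM in germ-like cells. In coelomic epithelium-like cells it had 644 CPM, and in peritubular myoid-like, Sertoli-like, interstitial-like and perivascular-like cells it lay between 581 and 602.5 CPM with overlapping intervals. *Hspd1* had 3910 (3843 to 3978) CPM in Leydig-like cluster 9 and 2010 (1956 to 2066) CPM in Leydig-like cluster 6. Germ-like cells had 579 CPM of *Hspd1*, Sertoli-like cells 520 CPM, coelomic epithelium-like cells 460 CPM, perivascular-like cells 429 CPM, interstitial-like cells 372 CPM and peritubular myoid-like cells 337 CPM. The 2 genes overlap on opposite strands between 55088132 and 55088243, which is the 5′ end of both, away from the ends that 3′ libraries read. Whether the counting used strand is not given in the sources used here.

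*Hspa1a* (chr17:34969190-34972156) and *Hspa1b* (chr17:34956436-34959238), single-exon genes, encode the HSP70 that is made on stress. *Hspa1a* had 260 (243 to 278) CPM in Leydig-like cluster 9, 41.6 (34.1 to 50.4) CPM in Leydig-like cluster 6 and 36.0 (32.8 to 39.4) CPM in Sertoli-like cells. Its level was 3.62 CPM in coelomic epithelium-like, 3.29 CPM in interstitial-like, 2.28 CPM in peritubular myoid-like, 2.04 CPM in germ-like and 1.58 CPM (2 UMIs) in perivascular-like cells, beside 1.61 CPM (1 UMI) in erythroid-like cells. *Hspa1b* had 187 (173 to 202) CPM in Leydig-like cluster 9, 35.7 CPM in Leydig-like cluster 6, 28.5 CPM in Sertoli-like and 11.1 CPM in germ-like cells, at most 3.26 CPM in the coelomic epithelium-like, peritubular myoid-like and interstitial-like cells, and 0 UMIs in perivascular-like cells. The inducible HSP70 genes were thus seen in Leydig-like and Sertoli-like cells and were scarce in the interstitial-like class.

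At 5000 UMIs per cell, 71.5% of Leydig-like cluster 9 cells had an *Hspa1a* UMI and 63.1% an *Hspa1b* UMI, against 17.3% and 12.4% of Sertoli-like cells, 1.41% and 0.47% of interstitial-like cells, and none of the 36 erythroid-like cells, which allows a share of up to 8.33%. As read, the *Hspa1a* share was 97.0% in Leydig-like cluster 9 at a median of 21482.5 UMIs and 2.78% in erythroid-like cells at 15278.5 UMIs. Summed, the pair had 447 (425 to 470) CPM in Leydig-like cluster 9, 77.4 (66.9 to 89.0) CPM in cluster 6, 64.6 (60.3 to 69.1) CPM in Sertoli-like cells and 5.08 (3.94 to 6.44) CPM in interstitial-like cells. Of the windows of 91 bases in the *Hspa1a* transcript, 49.1% also occur in *Hspa1b*, but none of its last 500 windows do, the end that 3′ libraries read.

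*Hspb1* (chr5:135887919-135889563) encodes a small heat shock protein that binds actin and unfolded proteins. It had 704 (690 to 719) CPM in Sertoli-like cells, 144 (130 to 159) CPM in coelomic epithelium-like, 58.9 CPM in peritubular myoid-like, 44.5 CPM in Leydig-like cluster 9, 25.5 CPM in Leydig-like cluster 6, 22.9 CPM in perivascular-like, 15.3 CPM in interstitial-like and 10.7 CPM in germ-like cells. The Sertoli-like level was 19.7 times (18.7 to 20.9) that of all other classed cells. At 5000 UMIs per cell, 92.3% of Sertoli-like and 6.33% of interstitial-like cells had a UMI, against 11.1% of erythroid-like cells. The unnamed cluster 12, whose nearest marker list was that of Sertoli cells, had 1034 (907 to 1175) CPM and *Hspb1* among its leading genes. Its cells were shallow, with a median of 3148.5 UMIs, and 10 of 62 reached 5000 UMIs. Rete testis-like cells had 357 (285 to 441) CPM.

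To set the members against all genes, each group was compared with all other classed cells, and a gene was counted when the ratio of CPM, with 5 CPM added on both sides, was at least 2 or at most 1/2, among genes with at least 5 CPM on either side. The cells were grouped by expression, so these counts are descriptions. In germ-like cells 12 of the 20 immediate early members tested were lower by the fold, against 27.0% of all genes tested: *Fos*, *Fosb*, *Jun*, *Junb*, *Egr1*, *Ier2*, *Btg1*, *Btg2*, *Klf6*, *Nfkbia*, *Socs3* and *Gadd45g*. None was higher. Of the 11 heat shock members, *Hspa8*, *Hsp90aa1*, *Dnaja1* and *Hsph1* were higher, against 13.0% of all genes, and *Hspa1a* and *Hspb1* lower. The median log2 ratio was -1.43 for the immediate early and 0.80 for the heat shock members, against -0.24 for all genes.

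In Sertoli-like cells, *Jun*, *Jund*, *Btg2*, *Klf4* and *Nfkbia* (5 of 21) and *Hspb1* (1 of 11) were higher, against 9.77% of all genes, and *Zfp36*, *Socs3* and *Hspe1* were lower, against 11.4%. In Leydig-like cluster 9, *Nr4a1*, *Gadd45g*, *Hspa1a*, *Hspa1b*, *Hspe1* and *Hspd1* were higher, against 7.27% of all genes, and *Jund*, *Egr1*, *Klf2*, *Klf6*, *Hsp90aa1*, *Hspb1* and *Hsph1* were lower, against 20.2%. In Leydig-like cluster 6, *Fos*, *Junb*, *Gadd45g*, *Hspe1* and *Hspd1* were higher, against 3.33%, and *Ier3* and *Hspb1* lower, against 8.27%. Both Leydig-like clusters thus shared *Gadd45g*, *Hspe1* and *Hspd1* among the higher genes.

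Interstitial-like cells had *Ier2* and *Socs3* higher, against 5.30% of all genes, and 4 immediate early (*Ier3*, *Klf4*, *Gadd45b*, *Gadd45g*) and 7 heat shock members (*Hspa1a*, *Hspa1b*, *Hsp90aa1*, *Hspe1*, *Hspd1*, *Hspb1* and *Hsph1*) lower, against 9.01%. Peritubular myoid-like cells had none higher, against 3.53%, and *Junb*, *Egr1*, *Klf4*, *Gadd45g* and 6 heat shock members lower, against 8.56%. Perivascular-like cells had *Junb*, *Egr1*, *Btg1* and *Gadd45b* higher, against 3.76%, and *Btg2*, *Klf4* and 6 heat shock members lower, against 8.39%. Coelomic epithelium-like cells had *Socs3* and *Gadd45b* higher, against 4.46%, and *Junb*, *Ier2*, *Gadd45g*, *Hspa1a* and *Hspa1b* lower, against 7.63%.

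These counts lean on the cells compared with. Without germ-like and Leydig-like cells in the rest, 3 heat shock members were lower in interstitial-like, peritubular myoid-like and perivascular-like cells alike. These were *Hspa1a*, *Hspa1b* and *Hspb1*. Of all genes, 8.2%, 7.4% and 6.8% were then lower in these groups, in that order. *Btg2* was lower as well in interstitial-like cells, and *Gadd45g* no longer. *Ier2* and *Btg2* were lower as well in peritubular myoid-like cells, and *Fosb* and *Jund* in perivascular-like cells. No immediate early member was then higher in interstitial-like cells (4.1% of all genes), and *Junb* was no longer higher in perivascular-like cells (2.9% of all genes). In Sertoli-like cells *Jun* was no longer higher and *Hspe1* no longer lower, while *Hspa1a*, *Hspa1b*, *Nr4a1* and *Gadd45g* were higher as well. Of all genes, 11.0% were higher and 11.7% lower there. Coelomic epithelium-like cells had *Egr1* lower as well, and *Hspa1b* no longer, where 6.8% of all genes were lower.

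Genes of the same pathways outside the 32 were taken from lists chosen with earlier results of these data known. Of 37 other heat shock genes and chaperones, 27 were higher by the fold in at least 1 group and 10 lower, where 37.8% of all 12303 genes tested were higher and 39.7% lower in at least 1 group. In germ-like cells 21 of the 36 tested were higher (13.0% of all genes), with a median log2 ratio of 1.24 against -0.24 for all genes. *Cct2*, a subunit of the cytosolic chaperonin, had 1376 CPM in germ-like cells and 317 CPM in the rest, *Cct5* of the same complex 1167 and 332 CPM, *Stip1*, which links HSP70 to HSP90, 458 and 72.9 CPM, and *Hspa4l* 53.3 and 5.93 CPM. *Cryab*, a small heat shock protein like *Hspb1*, had 156 CPM in coelomic epithelium-like cells and 11.2 CPM in the rest. *Ubb*, a ubiquitin gene, had 2680 CPM over all kept cells and passed the fold in no group.

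Of 36 other immediate early genes tested, 24 were higher in at least 1 group and 22 lower, beside the same 37.8% and 39.7% of all genes. In germ-like cells 16 of the 33 tested there were lower (27.0% of all genes) and 4 higher (13.0%). Their median log2 ratio was -0.88 against -0.24 for all genes. *Egr4*, a relative of *Egr1*, had 87.6 CPM in germ-like cells and 0.290 CPM in the rest, so the low germ-like level of *Egr1* did not hold for *Egr4*. *Egr2* and *Egr3*, at 0.238 and 0.475 CPM over all kept cells, were too low to be compared. *Cebpb*, a factor of metabolic and inflammatory genes, had 719 CPM in Leydig-like cluster 9 and 48.6 CPM in the rest. *Id1* had 10.9 CPM in germ-like cells and 157 CPM in the rest, *Hes1* 4.21 CPM in Leydig-like cluster 9 and 81.2 CPM in the rest, and *Zfp36l1* 21.9 CPM in germ-like cells and 208 CPM in the rest, while *Mcl1*, at 100.5 CPM over all kept cells, passed the fold in no group. Of 19 endoplasmic reticulum stress genes tested, 4 were higher and 10 lower in at least 1 group, 9 of them lower in germ-like cells, where 27.0% of all genes were lower. *Calr* had 331 CPM in germ-like cells and 848 CPM in the rest, *Pdia6* 148 and 527 CPM, *Xbp1* 18.2 and 68.2 CPM, and *Herpud1* 7.26 and 34.7 CPM. *Hspa5*, the chaperone of that compartment, had 326 and 616 CPM and did not pass the fold, *Hsp90b1*, at 815 CPM over all kept cells, passed it in no group, and *Asns* had 10.7 CPM in interstitial-like cells and 54.0 CPM in the rest. In germ-like cells, 1 of these 19 genes was higher by the fold, *Creld2*, with 62.9 CPM and 25.1 CPM in the rest.

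Within a group, cells differed in their summed counts. At 5000 UMIs per cell, the summed immediate early count had a median of 9 UMIs (quartiles 7 and 13) in Sertoli-like cells, 5 (3 and 7) in interstitial-like cells and 2 (1 and 4) in germ-like cells. Single cells reached 32 UMIs in Sertoli-like and 31 in interstitial-like cells, and the variance over the mean, which counting alone would put at 1, was 2.65 and 3.30 there and 1.46 in germ-like cells. It was 9.30 in the 32 immune-like cells, of which 1 held 46 UMIs. The summed heat shock count had a median of 91 UMIs (83 and 100) in germ-like cells with a variance over the mean of 1.59, 40 in Sertoli-like and 36 in interstitial-like cells. In Leydig-like cluster 6 it ran from 20 to 157 UMIs with a variance over the mean of 7.43.

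Some of the immediate early members varied together in interstitial-like cells. Over the 1280 thinned cells, Spearman's rank correlation was 0.31 for *Egr1* with *Ier2*, 0.27 for *Fos* with *Egr1*, 0.24 for *Fos* with *Jun*, 0.20 for *Jun* with *Egr1*, 0.14 for *Jun* with *Ier2* and 0.12 for *Jun* with *Jund*. *Egr1* with *Ier2* had 0.52 in 108 perivascular-like and 0.23 in 848 Sertoli-like cells, whereas in perivascular-like cells *Jun* had 0.05 with *Egr1* and -0.02 with *Ier2*. With cells thinned to 3000 UMIs, *Egr1* with *Ier2* had 0.46 in perivascular-like, 0.26 in interstitial-like and 0.09 in Sertoli-like cells. These values share 1 library and sparse counts, and are given as descriptions. The interstitial-like cells pool clusters 0, 3 and 5, whose immediate early sums were 1180, 1031 and 1057 CPM. The Sertoli-like cells pool clusters 1 and 7, with 1945 and 2021 CPM. Differences between pooled clusters can therefore enter the values of both classes. Of 5814 genes compared with the summed immediate early count in interstitial-like cells, a member being set against the sum of the other 20, the 5 most like it were *Egr1* (correlation 0.32), *Junb* (0.32), *Ier2* (0.29), *Jun* (0.24) and *Jund* (0.20). Of the other members compared, *Btg1* had 0.05, *Socs3* 0.04 and *Nfkbia* -0.01. The genes outside the members reached at most 0.14, and the first 10 were *Rhob*, *Col1a2*, *Mest*, *Zfp36l1*, *Col4a1*, *Fhl2*, *Mrpl24*, *Adamts5*, *Rpl10* and *Twist1*. Of these, *Col4a1* and *Adamts5* were leading genes of cluster 0.

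In Sertoli-like cells *Tnfrsf12a*, a receptor of the tumour necrosis factor family, was most like the summed count (correlation 0.34), ahead of *Jun* (0.34), *Btg2* (0.25) and *Jund* (0.25), among 5982 genes. *Creb5* (0.24), *Pdgfa*, *Rhob*, *Map1b*, *Rassf1*, *Ddah2*, *Clic1*, *Csnk1e* and *Dusp16* (0.16) followed among the genes outside the members. The 314 Leydig-like cells pool 184 of cluster 6 and 130 of cluster 9, so differences between the clusters enter their values. Their order was led by *Junb* (0.26), then *Trim8* (0.26), *Nppc*, *Plcb4*, *Calr*, *Eea1*, *Ldhb*, *Cyhr1*, *Tpt1*, *Ren1* and *Irf2bp2* (0.22). *Nppc* was a leading gene of cluster 6 and *Ren1* of cluster 9. In 247 germ-like cells the order was led by *Rad9b* (0.24), *Srsf7*, *Pank2*, *Anapc15*, *Zfp787*, *Tmco1*, *Lypla2*, *Tln1*, *Usp22* and *Krcc1* (0.19). Only 2 immediate early members, *Jund* and *Klf2*, were seen in enough germ-like cells to be compared, and neither was among the first 100. Of these lists of 10, those repeated at 3000 UMIs per cell shared 5, 2, 2 and 0 genes for Sertoli-like, interstitial-like, Leydig-like and germ-like cells, so single names outside the members are weak.

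The rank correlation between the immediate early and the heat shock sums was -0.01 in interstitial-like, 0.03 in Sertoli-like, -0.01 in germ-like and 0.21 in Leydig-like cluster 6 cells. With cells thinned to 3000 UMIs, the cluster 6 value was 0.12. The rank correlation of the immediate early sum with mitochondrial UMIs was -0.07 in interstitial-like and 0.03 in Sertoli-like cells, and with the depth of the cell before thinning -0.04 and -0.08. In perivascular-like cells the rank correlation with mitochondrial UMIs was -0.19, against -0.06 for the heat shock sum. Thinned to 3000 UMIs, these cells had -0.03 and -0.11, so the order of these values was not kept. The heat shock sum moved more with mitochondrial UMIs and depth in some groups and less in others. With mitochondrial UMIs its rank correlation was 0.35 in Leydig-like cluster 6, -0.33 in germ-like and -0.23 in Sertoli-like cells. With depth it was 0.35 in germ-like and 0.01 in peritubular myoid-like cells, and 0.37 over all cells, which pools groups of unlike depth. In Leydig-like cluster 6 the heat shock sum had 0.11 with depth and the immediate early sum -0.24. In coelomic epithelium-like cells these values were 0.02 and 0.20. At 3000 UMIs per cell they were 0.03 and -0.15 in cluster 6, and 0.02 and 0.096 in coelomic epithelium-like cells. The heat shock sum with mitochondrial UMIs then had 0.36 in cluster 6, -0.21 in germ-like and -0.20 in Sertoli-like cells. With depth it had 0.31 in germ-like cells. The part of depth and mitochondrial UMIs in the heat shock values was not tested.

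The 2 chaperonin genes followed the steroid-making genes in Leydig-like cluster 6. At 5000 UMIs per cell, *Hspe1* had a median of 7 UMIs (4 and 17.2) in cluster 6 and 25 (20 and 32) in cluster 9, and *Hspd1* 7 (3 and 14) and 18.5. The rank correlation between *Hspe1* and *Hspd1* was 0.77 in cluster 6, 0.46 in cluster 9, 0.11 in interstitial-like and -0.01 in Sertoli-like cells. The 8 Leydig markers, among them *Cyp11a1*, *Star* and *Hsd3b1*, had a summed median of 19 UMIs (2 and 97.8) in cluster 6 and 184 (157 and 214) in cluster 9, and of 0 to 1 UMI in all other groups. In cluster 6 their rank correlation was 0.80 with *Hspd1*, 0.75 with *Hspe1*, 0.33 with *Hspa1a* and 0.26 with *Hspa1b*, and -0.25 with the sum of *Hspa8*, *Hsp90aa1* and *Hsp90ab1*. In cluster 9 it was 0.01 with *Hspd1* and 0.13 with *Hspe1*.

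Cluster 6 thus held cells with few and cells with many Leydig marker UMIs. Its cells were split by their Leydig marker UMIs into 4 bins of 45 to 48 cells. From the lowest to the highest bin the markers averaged 0.813, 7.98, 56.3 and 134 UMIs, while mean *Hspd1* was 3.33, 4.38, 10.6 and 21.6 UMIs of 5000, and mean *Hspe1* was 4.88, 5.73, 11.4 and 26.2 UMIs. The mitochondrial UMIs moved with the same order, at 298, 337, 382.5 and 439, and their part in the result was not tested. None of the 8 markers was among the 10 leading genes of cluster 6. Outside the Leydig-like clusters, the group means of these markers ran from 0.32 UMIs in germ-like to 0.82 in endothelial-like cells. The lowest bin of cluster 6, at 0.813 UMIs, lay within that span only through the 17 endothelial-like cells. Among the other groups of at least 100 cells the highest mean was 0.63, in interstitial-like cells. The bin was also picked for its few marker UMIs, whereas the other means are of whole groups. The lower quartile of cluster 6 was 2 UMIs, and the upper quartile of each group outside the Leydig-like clusters was 1. The name was given to the cluster and not to each cell. Whether cluster 6 is 1 graded type or a mix of Leydig and other cells was not tested.

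**Figure D4:**
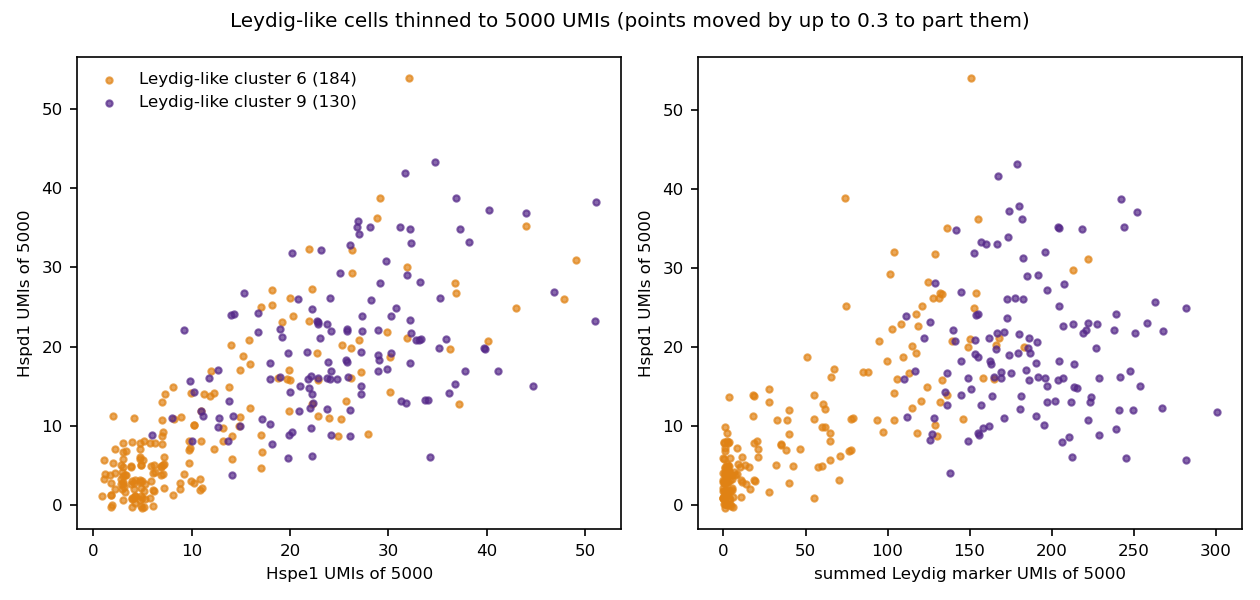
*Hspd1* UMIs of 5000 (vertical) in single Leydig-like cells against *Hspe1* UMIs of 5000 (left) and the summed UMIs of 8 Leydig markers (right), for 184 cells of cluster 6 and 130 cells of cluster 9. Cluster 6 climbs from near 0 along both axes, with rank correlations of 0.77 and 0.80, and cluster 9 lies at high values of both markers and chaperonin genes.

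Barcodes that the filters removed were checked for the members as well, since the filters act on depth and mitochondrial share. The 204 doublets had 1425 CPM of immediate early and 9061 CPM of heat shock members, against 1202 and 9928 CPM in kept cells. The 68 barcodes with too many UMIs had 650 and 17240 CPM, near the germ-like values, and the 526 with too few UMIs had 1597 and 9335 CPM. The 231 with a high mitochondrial share had 971 and 9432 CPM, but 213 (196 to 231) CPM of *Hspa1a* and *Hspa1b* together, against 50.9 CPM in kept cells. Their Leydig markers were also higher, at 19870 CPM against 2880 CPM. The part of these markers' cells in that *Hspa1a* and *Hspa1b* level was not tested. The 372 barcodes with under 200 genes had 111 and 182 CPM, and 46.8% of their UMIs were hemoglobin and 49.2% mitochondrial.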

How the data were processed

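The data are 1 single-cell library of control testes. The authors made the deposited UMI counts per gene and barcode with Cell Ranger, without normalization: the submitters' processing notes name versions 3.0.2 and 3.1.0 and the builds mm10 and GRCm38, the matrix header names 3.1.0, and the methods name another version. Barcodes with under 200 genes, 4.04% of barcodes scored as doublets against artificial doublets, and cells beyond 3 median absolute deviations on UMIs, genes, mitochondrial or ribosomal-protein share were removed. Clustering used Seurat 5.3.0 and sctransform 0.4.2 in R 4.3.3 on 2944 variable genes, after 56 stress genes were left out, at resolution 0.8 with 30 components. All else was computed with scipy 1.17.1, scikit-learn 1.9.0, numpy 2.4.6 and pandas 2.3.3 under Python 3.11.15. Names came from fixed markers. Shares at equal depth used cells thinned to 5000 UMIs, which left out 168 cells. Positions are those of GENCODE on GRCm38.

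The members and lists were chosen with earlier results of these data known. The text names all 32 members, in full the 6 of each kind with the highest CPM with *Fos*, *Egr1*, *Hspa1a*, *Hspa1b* and *Hspb1*, of each other list at most 4 genes past the fold by ratio and 3 by CPM, and the 10 non-member genes most like the immediate early sum. *Cyr61* and *Ctgf* were read under their newer symbols *Ccn1* and *Ccn2*. Steps that give ratios were tested on simulated data. Other filters, doublet rates, resolutions, classings, totals, added CPM and depths were tried as alternatives.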

Additional observations from a re-analysis of the deposited data

How the results depend on the processing

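A chosen set of ratios between classes was followed, and none changed sides of 1 under the 11 alternatives that recomputed them. Most of these ratios lay far from 1, so a change of side was unlikely from the start. None was of perivascular-like or coelomic epithelium-like cells or of 1 Leydig-like cluster alone. They were not recomputed without germ-like and Leydig-like cells in the rest. The classes did change in size. Interstitial-like cells numbered 889 in place of 1347 with cells classed one by one, and peritubular myoid-like cells 347 in place of 531 at resolution 1.2. Leydig-like cells numbered 225 in place of 317 at double the doublet rate. Without the outlier filter, which also keeps more barcodes, there were 1305 Sertoli-like and 615 unnamed cells in place of 863 and 147. The highest class among Sertoli-like, interstitial-like, peritubular myoid-like and germ-like cells changed for *Fosb* without the outlier filter and for *Btg1* under 4 alternatives (no doublets removed, cells classed one by one, a total that leaves out mitochondrial, ribosomal-protein and hemoglobin genes, and per-cell means). Of the summed ratios and the counts, 87 moved by less than their counting interval or, for counts, by less than 1.5 times, and 11 moved by more. Of the remaining values, most of them ratios of single genes, 129 moved by less and 68 by more: *Hspb1* in Sertoli-like cells (19.7) ran from 14.95 to 20.8, and *Hspa1a* in Leydig-like cells (14.1) from 11.5 to 18.5. The heat shock ratio of germ-like over Sertoli-like cells (2.28) was 2.32 with 5 deviations, 2.31 without the outlier filter, 2.54 with that other total, and 2.26 as the mean of per-cell levels. The interstitial-like over Sertoli-like ratio (0.886) was 0.877 without the outlier filter, 0.866 with cells classed one by one and 0.897 with that other total. The immediate early ratio of germ-like over Sertoli-like cells (0.261) was 0.279 with no doublets removed and 0.290 with the other total, and that of interstitial-like over Sertoli-like cells (0.576) was 0.559 with cells classed one by one. Over these 4 classes, 38 pairs of a member and a class were lower by the fold, and 25 with 20 CPM added, a construction that shrinks the ratios of low genes. The cause of the other moves was not tested. With no doublets removed, the germ-like over other level was 0.108 in place of 0.0708 for *Jun* and 0.139 in place of 0.0917 for *Egr1*. The comparison without germ-like and Leydig-like cells in the rest, and the sums without *Jund* or without *Hspa8*, *Hsp90aa1* and *Hsp90ab1*, were chosen after the data were seen. No replicate could be left out and no paired analysis was possible because there was 1 sample. Depth limits the scarce members: *Fos* and *Dusp1* lay near or below the erythroid-like level in most groups.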
